A study of Homo sapiens with 32 samples.

Results

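The comparison asked which mRNAs had decayed and which genes had started between 1 and 4 hours of epidermal growth factor (EGF) in LNCaP cells. Where an mRNA is said to have decayed, only a fall in its level was measured. Less synthesis and faster breakdown cannot be told apart in these data. LNCaP is an established prostate carcinoma line that grows under androgen and carries an active androgen receptor. The comparison used 4 libraries labelled EGF 100ng/ml 4 hours and 4 labelled EGF 100ng/ml 1 hour, 8 of 32 RNA-seq libraries in all. Cells had been moved the day before to medium with charcoal-stripped serum (CSS), which holds little steroid hormone. This medium was shared by the 4 untreated CSS libraries and the 4 libraries taken 5 minutes after EGF. It was also shared by the libraries treated with neuregulin-1 (NRG-1, 100ng/ml), a ligand of HER3 and HER4. The labels give no untreated library for each time, so time in this medium and time with a ligand cannot be told apart. Every group was made of replicates 1 and 2 of batches 1 and 2, and values are given in the order batch 1 replicate 1, batch 1 replicate 2, batch 2 replicate 1 and batch 2 replicate 2. Nothing in the sources used here says that replicates of a batch were separate cultures, so *P* values measure the spread between these libraries, which may be technical.

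EGF binds its receptor EGFR, and RAS and ERK then carry the signal to the nucleus. The first genes to respond, the immediate early genes, need no new protein to be transcribed. Many of them encode transcription factors of the FOS, EGR and NR4A families, and their mRNAs are short lived. A later set needs proteins made from the early ones, and it includes proteases, matrix genes and the PEA3 group of ETS factors. ERK also induces its own inhibitors, among them the DUSP phosphatases and the Sprouty proteins.

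The 8 libraries held 69089096 to 92397733 counts, with a median of 73729423 at 1 hour and 77631884 at 4 hours. LNCaP markers were present in all 8 libraries, with a summed level of 10 markers between 3834 and 4506 TPM (a level scaled to transcript length and library size). The summed level of 17 markers of other cell types was 9.51 to 13.3 TPM at 1 hour and 17.2 to 20.7 TPM at 4 hours, and *CD3E* and *CDH5* had no count in any of these libraries. Of the 8 such markers that passed the filter on low counts, *CD68*, a lysosomal protein common in macrophages, rose from 3.69 ± 0.379 to 14.4 ± 2.23 CPM (counts scaled to library size, mean ± SD, n = 4) with adjusted *P* = 9.45e-13, and *VWF*, an endothelial clotting factor, fell from 11.5 ± 2.00 to 5.00 ± 1.39 CPM with adjusted *P* = 2.50e-08. Their part in the results was not tested. In bulk RNA, fewer cells of a type and less RNA per cell cannot be told apart.

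Between 1 and 4 hours, 1397 of 16995 genes tested were called, 8.22% of them, with 821 higher (4.83%) and 576 lower (3.39%) at 4 hours. A gene was called where the Benjamini-Hochberg adjusted *P* of edgeR's quasi-likelihood test was under 0.05 and the log2 fold change was beyond 1. Without the fold limit, 3826 genes were higher (22.5%) and 3658 lower (21.5%). All 4 libraries of 4 hours lay above all 4 of 1 hour for 20.5% of genes tested and below them for 18%. The median log2 fold change over all genes was 0.0045. Of the called genes, 856 had an average log2 CPM under 1. Batch 1 alone gave 1529 called genes and batch 2 alone 876, of which 1203 and 823 were called in the same direction in both batches together, with 0 in the opposite direction.

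The genes that fell comprised 76 that had risen by 1 hour and were no longer called above CSS at 4 hours, 28 that had risen by 1 hour and were still called above CSS, and 472 that had not been called higher at 1 hour. The genes that rose comprised 778 late starters that were not called at 1 hour, 34 that were already called higher at 1 hour, and 9 that had been called lower at 1 hour (0.265% of all genes were). The libraries of 1 hour stand in both contrasts, so these classes are a description and no test of one time against the other. Medians of the log2 fold change from 1 to 4 hours were -1.88 for the early genes that returned, -1.49 for those that were partly decayed, -1.36 for the late falls, 1.96 for the genes still rising, 1.64 for those recovering and 1.79 for the late starters.

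**Figure D1:**
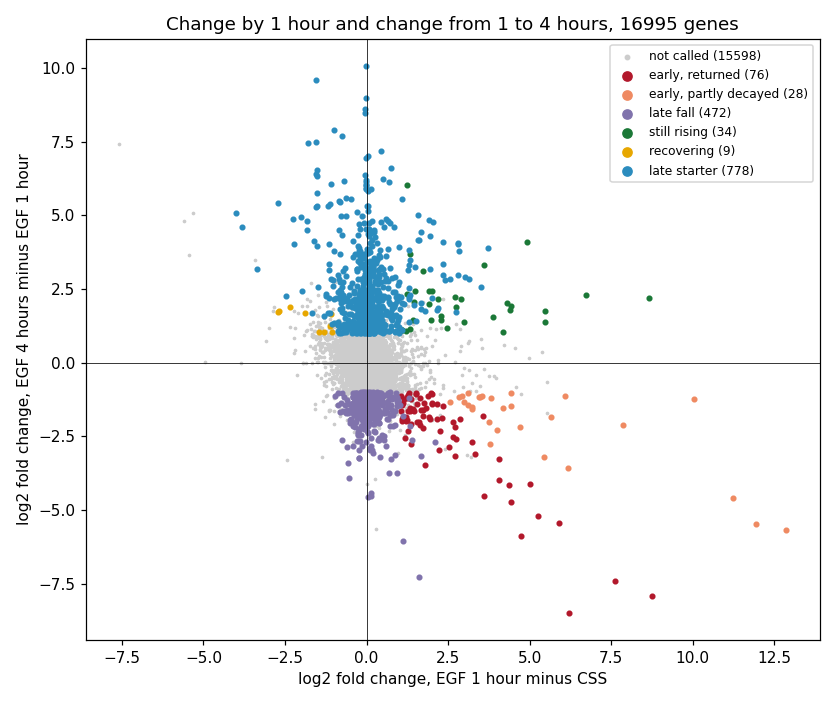
Each point is 1 of 16995 genes, with the log2 fold change of EGF 1 hour minus CSS on the horizontal axis and of EGF 4 hours minus EGF 1 hour on the vertical axis, coloured by class with the number of genes in parentheses. The 104 early genes that were called lower lie at the lower right and the 778 late starters spread above the middle, and both axes use the 1 hour libraries.

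Among the early mRNAs that decayed, the transcription factor *FOSB*, a partner of JUN in AP-1, had the largest fall among called genes whose average log2 CPM was 1 or more. Its levels were 185, 189.6, 108 and 113 CPM at 1 hour and 0.969, 0.842, 0.806 and 0.857 CPM at 4 hours, against 0.581, 0.544, 1.13 and 0.692 CPM in CSS. The 1 hour and 4 hour libraries were far apart, and the 4 hour libraries overlapped with CSS. The fall was 171-fold in mean CPM (log2 fold change -7.41, SE 0.24, adjusted *P* = 7.35e-20), and *FOSB* at 4 hours was not past the threshold against CSS (adjusted *P* = 0.602). Nuclear receptor genes of the NR4A family are classic early genes. *NR4A1* held 603, 606, 443 and 428 CPM at 1 hour and 11.2, 11.7, 13.8 and 10.9 CPM at 4 hours (log2 fold change -5.44, SE 0.11, adjusted *P* = 7.35e-24), close above the 8.26 to 8.97 CPM of CSS. Its relative *NR4A3*, named after its values were seen, fell from 6.31, 5.85, 5.29 and 4.98 to 0.228, 0.137, 0.126 and 0.122 CPM (log2 fold change -5.19, adjusted *P* = 2.14e-18), overlapping with the 0.0859 to 0.199 CPM of CSS.

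The zinc-finger factors of the EGR family fell as steeply but from different baselines. *EGR3* was at 627, 649.6, 364 and 369 CPM at 1 hour and 15.5, 16.6, 7.20 and 7.04 CPM at 4 hours (log2 fold change -5.47, SE 0.13, adjusted *P* = 7.71e-23), against 0.0607 to 0.201 CPM in CSS. *EGR2* was at 149, 149, 40.0 and 41.0 CPM at 1 hour and 4.94, 5.65, 1.91 and 2.11 CPM at 4 hours (log2 fold change -4.59, SE 0.22, adjusted *P* = 2.52e-16). In both batches the 4 hour libraries lay below every 1 hour library and above every CSS library. For *EGR2* and *EGR3* alike, the batch 1 libraries held more than the batch 2 libraries at both times. *EGR4* had no count in the 4 CSS libraries, 18.0, 17.6, 7.42 and 7.68 CPM at 1 hour, which is at least 340.0-fold over the level of 3 counts per library in CSS, and 0.271, 0.398, 0.138 and 0.153 CPM at 4 hours (log2 fold change -5.66, SE 0.22, adjusted *P* = 4.08e-17). *EGR1*, a family member outside the naming rule and chosen after its values were seen, behaved otherwise. It held 1528, 1605, 1061 and 1070.1 CPM at 1 hour and 632, 656, 490.4 and 474 CPM at 4 hours, against 1.16 to 1.37 CPM in CSS. This was a fall of 2.34-fold (log2 fold change -1.22, SE 0.31, adjusted *P* = 0.00161), with 42.7% of the 1 hour gain still present, whereas *EGR3* kept 2.28% and *EGR2* 3.82%.

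*ATF3*, a stress-induced repressor of the ATF and CREB family, went below its starting level. It was at 57.9, 56.2, 49.7 and 56.4 CPM in CSS, 810.3, 764, 529 and 590.2 CPM at 1 hour and 26.6, 25.1, 30.9 and 34.8 CPM at 4 hours (log2 fold change -4.52, SE 0.19, adjusted *P* = 1.72e-17), and the 4 hour libraries did not overlap with CSS (log2 fold change -0.91, adjusted *P* = 4.59e-05). The zinc exporter gene *SLC30A10* did the same at a low level, with 1.80, 1.39, 2.28 and 2.36 CPM in CSS, 6.56, 6.29, 6.68 and 6.64 CPM at 1 hour and 0.456, 0.501, 0.869 and 0.582 CPM at 4 hours (log2 fold change -3.47, SE 0.15, adjusted *P* = 1.47e-17). It was 1 of 4 genes of the early, returned class that were called below CSS at 4 hours. The matricellular gene *CYR61*, a target of SRF and YAP, went from 227, 215, 136 and 142 CPM at 1 hour to 7.00, 6.90, 6.28 and 7.09 CPM at 4 hours (log2 fold change -4.71, SE 0.14, adjusted *P* = 1.83e-20), against 7.51 to 8.87 CPM in CSS. Its relative *CTGF* was at 7.32 to 8.66 CPM at 1 hour and had 2 to 4 counts per library at 4 hours and 0 to 3 in CSS (adjusted *P* = 4.12e-16 for 4 hours against 1 hour).

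Further falls of more than 8-fold were seen for *RASD1*, which encodes a RAS-related GTPase, for *C8orf4* and for *TUFT1*, which encodes tuftelin. *RASD1* fell from 112, 97.8, 53.3 and 54.1 to 4.10, 4.55, 4.21 and 4.78 CPM (log2 fold change -4.16, adjusted *P* = 4.35e-17). *C8orf4* fell from 23.8, 24.1, 18.5 and 19.6 to 1.62, 1.53, 0.768 and 0.980 CPM (log2 fold change -4.13, adjusted *P* = 5.56e-16). *TUFT1* fell from 353, 376, 297 and 321 to 38.3, 35.3, 37.5 and 37.3 CPM (log2 fold change -3.18, adjusted *P* = 1.89e-22). In the plot of levels by time, 11 of these 12 genes peaked at 1 hour, and *EGR2*, *EGR3* and *EGR4* were still called above CSS at 4 hours. For all 12 the 1 hour and 4 hour libraries did not overlap, with 4 hours the lower, as for 18% of genes tested. Choosing the largest falls from these same libraries favours such a separation. The 12th, *SRGAP3*, a GTPase-activating protein for RAC, had not risen by 1 hour and is described with the late falls.

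**Figure D2:**
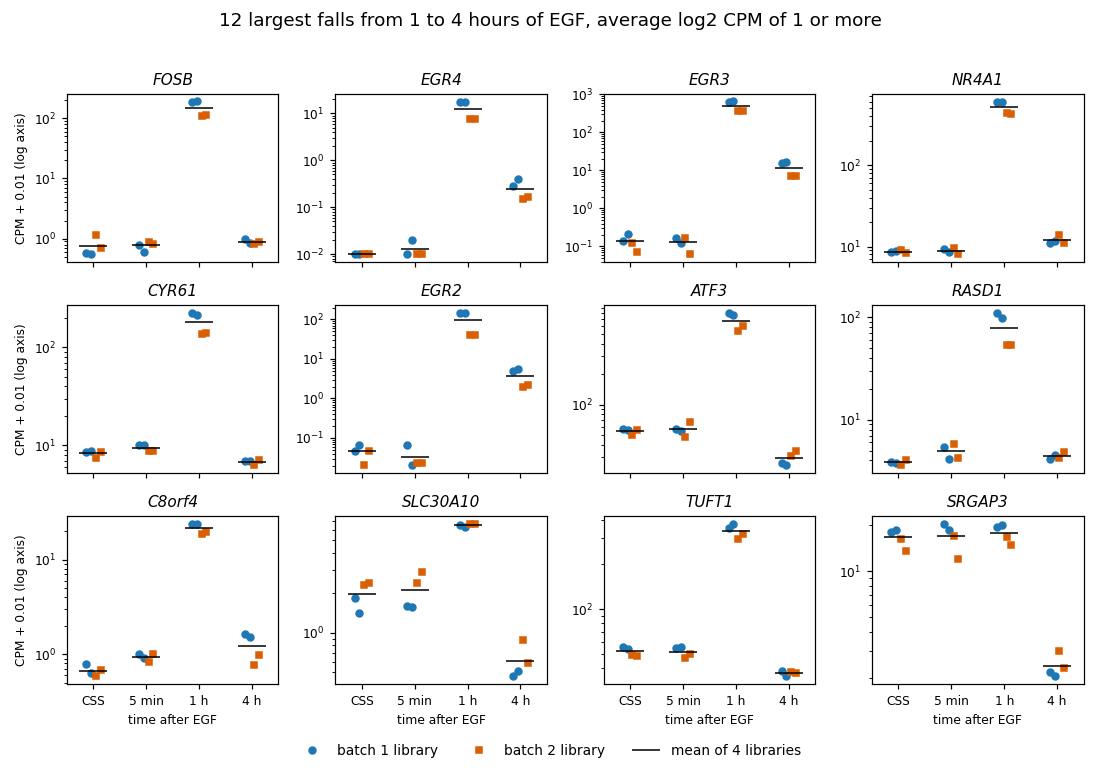
Levels of the 12 genes with the largest falls from 1 to 4 hours, among called genes whose average log2 CPM was 1 or more and whose 4 pairs moved one way, in each of 4 libraries of CSS, EGF 5 minutes, EGF 1 hour and EGF 4 hours, as CPM + 0.01 on a log axis, with circles for batch 1, squares for batch 2 and bars for the mean. All 4 libraries of 4 hours lay below all 4 of 1 hour in every panel, which the choice of these genes favours, and only *SRGAP3* had no peak at 1 hour.

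Of 37 immediate early transcription factors, 18 were called lower and 2 higher at 4 hours (3.39% of all genes were lower and 4.83% higher), and 26 were lower and 7 higher at any fold (21.5% and 22.5% of all genes), with a median log2 fold change of -0.85 against 0.0045 over all genes. The list had 27 members called higher than CSS at 1 hour (1.46% of all genes were) and 18 at 4 hours (5.86% of all genes). Those called higher from 1 to 4 hours were *RUNX1* (log2 fold change 1.74) and *MYC*, a driver of growth and ribosome synthesis, and both were named as the only members of that count. *MYC* was at 254, 264, 256 and 256 CPM in CSS, 196, 206, 213 and 217 CPM at 1 hour and 418, 433, 433 and 426 CPM at 4 hours (log2 fold change 1.04, SE 0.05, adjusted *P* = 1.05e-15). Its 1 hour libraries lay below all CSS libraries, and its 4 hour libraries above them. *FOS* itself, described here after its values were seen, kept 23.4% of its gain, with 175, 168, 108 and 107 CPM at 1 hour and 31.2, 32.3, 35.2 and 34.0 CPM at 4 hours (log2 fold change -2.10, adjusted *P* = 8.16e-08).

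The same fall was measured in a list that no EGF library had chosen. This list held the 137 genes called higher at 1 hour of NRG-1 against CSS (0.806% of genes tested). Between 1 and 4 hours of EGF, 68 of them were called lower and 18 higher, against 3.39% and 4.83% of all genes. At any fold, 87 were lower and 27 higher, against 21.5% and 22.5% of all genes. Their median log2 fold change was -0.98. Summed over the 137 genes, the level per length was 1617, 1726, 1725 and 1556 TPM in CSS, 10367, 10679, 8617 and 8289 TPM at 1 hour of EGF and 5932, 5938, 5237 and 4915 TPM at 4 hours. Every 4 hour library lay below every 1 hour library and above every CSS library. The batch 1 libraries were the higher ones at both times. Of its members with an average log2 CPM of 1 or more, those with the largest falls were *FOSB*, *EGR4* and *EGR3*.

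Some early mRNAs kept the gain of 1 hour. There were 248 genes called higher at 1 hour of EGF against CSS (1.46% of genes tested). Of these, 104 were called lower at 4 hours, 34 called higher and 110 neither (3.39% of all genes were lower and 4.83% higher). Choosing these genes by the same 1 hour libraries favours a fall. The mean CPM at 4 hours, less that of CSS, was a median of 42.7% of the gain at 1 hour, with quartiles of 8.06% and 120.5%. Less than 10% was present for 67 genes, 10 to 50% for 70, 50 to 100% for 42 and more than 100% for 69. By the same limit on abundance, the 3 NRG-1 early genes with the smallest change were *SPATA2L* and the actin-binding genes *TPM4* and *CNN2*, which encode tropomyosin 4 and calponin 2. *TPM4* was at 127, 133, 142 and 152 CPM in CSS, 655, 682, 564 and 598 CPM at 1 hour and 684, 701, 515 and 573 CPM at 4 hours (log2 fold change -0.01, SE 0.08, adjusted *P* = 0.907). *CNN2* was at 24.9 ± 2.43 CPM in CSS, 83.2 ± 1.05 at 1 hour and 82.2 ± 1.62 at 4 hours (log2 fold change -0.02, SE 0.06, adjusted *P* = 0.851). *SPATA2L* was at 17.2 ± 1.63 CPM in CSS, 44.5 ± 4.15 CPM at 1 hour and 44.5 ± 5.65 CPM at 4 hours (log2 fold change -0.00 with SE 0.09). The 1 hour and 4 hour libraries of all 3 overlapped while both stood above CSS, and a *P* past no threshold does not show equal levels.

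**Figure D3:**
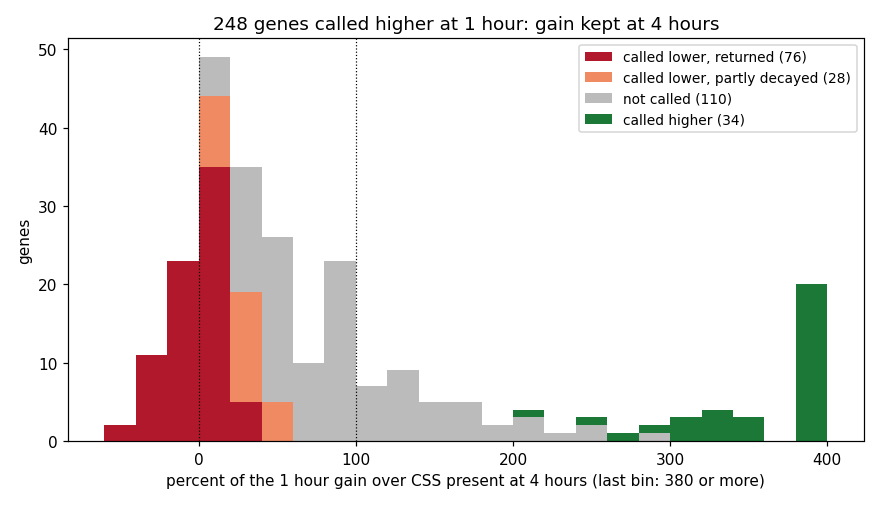
Histogram of the percent of the 1 hour gain over CSS that was present at 4 hours, for 248 genes called higher at 1 hour, in bins of 20 percentage points with the last bin holding 380% or more. The 104 genes called lower at 4 hours lie below 50%, the 110 not called spread over both sides of 100%, and the 34 called higher lie above 100%. The fold limit of the calls itself places the called genes on those sides.

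Genes of the early classes were short with few exons, whether or not their mRNA levels fell from 1 to 4 hours. By RefSeq on GRCh38.p14, the median genomic span was 12.9 kb for the 102 of 104 early genes called lower that matched by symbol, 17.6 kb for 109 of the 110 early genes not called between 1 and 4 hours, 12.5 kb for the 34 genes still rising, 7.88 kb for the 9 recovering, 39.2 kb for 761 of 778 late starters, 49.7 kb for 448 of 472 late falls and 27.9 kb for 16462 of the 16995 genes tested. Protein-coding members had a median of 4, 5, 4.5, 6, 8, 9 and 9 exons in that order in the canonical GENCODE transcript. AU-rich elements in the 3′ UTR are known to speed the decay of mRNAs. Their 9-base core TTATTTATT was found in the 3′ UTR of 20 of 97 early genes called lower (20.6%), 15 of 100 early genes not called (15%), 59 of 706 late starters (8.36%) and 1349 of 14841 of all genes tested (9.09%). The 7 bases TATTTAT were in 58.8%, 51%, 36.3% and 34.5% of these, so the early genes that were not called also held more of them than the late starters did. The few recovering genes held the 9 bases in 3 of 9 and the 7 bases in 6 of 9, and the 32 coding genes still rising in 3 and 15. Late falls held the 9 bases in 51 of 387 (13.18%) and the 7 bases in 40.05%. The NRG-1 early genes held the 9 bases in 18 of 130 (13.85%) and the 7 bases in 52.31%. The median 3′ UTR length was 1.25 kb for the early genes called lower, 1.19 kb for those not called, 1.52 kb for late starters and 1.27 kb for all genes. These shares are descriptions with no test, on a newer build than that of the counts, and a match is not shown to be a working element. The 5 genes below are all the early, decaying genes named by rule that held the 9 bases, apart from *C8orf4*, which is not shown, with the core in capitals and the build GRCh38 of GENCODE 44.
ZFP36 (chr19:39409196-39409224, plus strand): tatgacgactTTATTTATTctaatatgat
CXCL8 (chr4:73742664-73742692, plus strand): atgtaaagtaTTATTTATTtgaatctaca
GDF15 (chr19:18389054-18389082, plus strand): tataagtctgTTATTTATTattaatttat
CHAC1 (chr15:40955959-40955987, plus strand): acttgaaactTTATTTATTgcaccatgtt
PER1 (chr17:8140707-8140735, minus strand): ggggctgcacTTATTTATTgcggggagac

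These 5 mRNAs differed in how far they fell. *GDF15*, a stress cytokine, fell from 774, 741, 739.6 and 727 CPM at 1 hour to 193, 205, 224 and 227 CPM at 4 hours (log2 fold change -1.82, adjusted *P* = 3.67e-18), within the range of 206 to 243 CPM in CSS or just under it. *CXCL8*, the chemokine interleukin 8, fell from 2.02, 2.27, 1.23 and 1.17 to 0.143, 0.137, 0.176 and 0.0919 CPM (log2 fold change -3.58, adjusted *P* = 4.44e-09). *CHAC1*, which degrades glutathione and is induced by ATF4, fell from 71.5, 65.8, 62.2 and 60.2 to 14.7, 15.9, 20.1 and 21.3 CPM (log2 fold change -1.88, adjusted *P* = 2.88e-12), below the 26.3 to 33.5 CPM of CSS. *ZFP36* itself encodes tristetraprolin, which binds AU-rich elements and promotes decay, and fell from 117, 111, 97.1 and 94.9 to 49.4, 54.9, 44.1 and 42.7 CPM (log2 fold change -1.14, adjusted *P* = 2.37e-10), staying above the 8.49 to 9.18 CPM of CSS. *FOSB*, *EGR3* and *NR4A1*, described above, had no copy of the 9 bases in these transcripts.

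Of 23 feedback inhibitors of ERK, 6 were called lower and 3 higher at 4 hours (3.39% of all genes were lower and 4.83% higher), and 13 were lower and 7 higher at any fold (21.5% and 22.5% of all genes). *SPRY2*, a Sprouty inhibitor of RAS signalling, fell from 20.0, 18.8, 19.8 and 20.9 to 3.08, 3.35, 2.95 and 2.39 CPM (log2 fold change -2.76, SE 0.09, adjusted *P* = 1.45e-19), with CSS at 1.32 to 1.52 CPM. *DUSP5*, a nuclear ERK phosphatase, fell from 67.3, 65.9, 48.2 and 46.1 to 13.3, 13.8, 12.0 and 10.7 CPM (log2 fold change -2.19, adjusted *P* = 5.72e-19) and kept 18.7% of its gain. *ERRFI1*, an inhibitor of the EGFR kinase, fell from 253, 258, 183 and 184 to 59.3, 60.0, 48.5 and 49.5 CPM (log2 fold change -2.01, adjusted *P* = 2.00e-18). *DUSP2* fell from 90.8, 80.3, 57.0 and 54.3 to 28.6, 23.2, 24.7 and 22.9 CPM (2.84-fold in mean CPM, adjusted *P* = 9.30e-11). The 3 called higher were *DUSP6*, *SPRED1* and *NAB1*, named as the members of that count. *DUSP6*, the cytoplasmic ERK phosphatase, was at 0.630 to 0.862 CPM in CSS, 12.5, 12.5, 13.2 and 14.4 CPM at 1 hour and 31.7, 30.9, 22.9 and 23.5 CPM at 4 hours (log2 fold change 1.05, adjusted *P* = 4.09e-09). *SPRED1* and *NAB1*, a corepressor of EGR factors, had log2 fold changes of 1.27 and 1.46.

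Of 17 mRNA decay factors and NF-kB feedback genes, 3 were called higher and 2 lower (4.83% and 3.39% of all genes), and 6 were higher and 8 lower at any fold (22.5% and 21.5% of all genes). The NF-kB inhibitors recovered from a low point at 1 hour. *NFKBIA*, which encodes IκBα, was at 34.0, 35.0, 40.9 and 40.7 CPM in CSS, 12.4, 12.5, 18.4 and 17.9 CPM at 1 hour and 31.4, 32.4, 31.2 and 30.4 CPM at 4 hours (log2 fold change 1.05, adjusted *P* = 1.73e-10). *TNFAIP3*, encoding the deubiquitinase A20, was at 2.82, 2.96, 2.19 and 1.71 CPM in CSS, 1.14, 1.18, 0.989 and 1.04 CPM at 1 hour and 3.53, 3.01, 2.10 and 1.88 CPM at 4 hours (log2 fold change 1.25, adjusted *P* = 5.94e-08). At 4 hours *TNFAIP3* overlapped with CSS and *NFKBIA* lay just under it. The NF-kB subunit *RELB* rose from 1.70, 1.56, 2.21 and 1.88 to 6.68, 7.23, 5.16 and 5.18 CPM (log2 fold change 1.72, adjusted *P* = 6.93e-11), above the 1.10 to 1.32 CPM of CSS.

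Secreted growth factors and cytokines had 4 of 13 members called lower and 1 higher (3.39% of all genes were lower and 4.83% higher), with 7 lower and 2 higher at any fold (21.5% and 22.5% of all genes). *AREG*, the EGFR ligand amphiregulin, fell from 4.35, 4.13, 2.83 and 3.05 to 1.13, 1.10, 0.516 and 0.827 CPM (log2 fold change -2.01, adjusted *P* = 9.06e-09) and kept 18.9% of its gain. *VGF*, a neuropeptide precursor, was the member called higher, at 0.762 to 1.13 CPM in CSS, 5.27, 4.68, 7.00 and 7.58 CPM at 1 hour and 27.1, 26.1, 19.5 and 19.1 CPM at 4 hours (log2 fold change 1.90, adjusted *P* = 7.75e-11). The EGFR ligand *HBEGF*, named after its values were seen, fell less, from 55.6 ± 3.72 to 34.6 ± 6.00 CPM (log2 fold change -0.69, adjusted *P* = 6.92e-09).

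Among the late starters with an average log2 CPM of 1 or more, the largest rise was that of *IGF2BP2*, which encodes an RNA-binding protein of fetal tissues and tumours. It was at 0.0484, 0.0430, 0.0553 and 0.0486 CPM in CSS, 0.0754, 0.113, 0.0488 and 0.0434 CPM at 1 hour and 14.2, 13.3, 7.15 and 7.49 CPM at 4 hours, 150.4-fold above 1 hour (log2 fold change 7.19, SE 0.19, adjusted *P* = 3.87e-22). At 4 hours the batch 1 libraries lay above the batch 2 libraries, and both batches were far above 1 hour. *SIPA1L2*, encoding a RAP GTPase-activating protein, was at 23.2, 22.9, 18.9 and 17.1 CPM at 1 hour and 703, 674, 511 and 451 CPM at 4 hours (log2 fold change 4.82, SE 0.15, adjusted *P* = 3.63e-20). Per length, its mean level at 4 hours was 149 TPM, the highest of these 12 genes, and that of *IGF2BP2* was 4.91 TPM. *ETV4*, an ETS factor of the PEA3 group, went from 0.201, 0.0705, 0.232 and 0.159 to 10.5, 10.9, 11.7 and 10.7 CPM (log2 fold change 6.01, SE 0.21, adjusted *P* = 3.57e-19). It counts as still rising because its small rise by 1 hour was called (adjusted *P* = 0.0445), with 0.0363 to 0.111 CPM in CSS overlapping with 1 hour.

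Growth factor and receptor genes were among the late starters. *TGFBR2*, the type II receptor for TGF-β, rose from 0.553, 0.592, 0.610 and 0.579 to 15.5, 14.1, 12.5 and 11.9 CPM (log2 fold change 4.52, SE 0.12, adjusted *P* = 5.95e-22). *IGF2*, a ligand of the IGF1 receptor, rose from 0.176, 0.634, 0.549 and 0.535 to 12.0, 11.6, 9.13 and 7.95 CPM (log2 fold change 4.44, SE 0.30, adjusted *P* = 6.12e-13). *CHRM3*, a muscarinic receptor, rose from 0.478, 0.479, 0.549 and 0.506 to 8.41, 7.74, 8.16 and 7.40 CPM (log2 fold change 3.97, adjusted *P* = 7.20e-18). All 3 overlapped with CSS at 1 hour, with 0.522 to 0.774, 0.230 to 0.586 and 0.352 to 0.564 CPM in CSS. The transcription factor *TCF7*, which acts with β-catenin, rose from 0.591, 0.409, 0.549 and 0.738 to 17.9, 17.1, 9.97 and 9.06 CPM (log2 fold change 4.52, SE 0.23, adjusted *P* = 1.13e-15). *ARAP2*, which regulates ARF GTPases, rose from 4.15 ± 0.789 to 69.6 ± 9.55 CPM (log2 fold change 4.07, adjusted *P* = 5.31e-19). The other 4, *B3GAT1*, *PGBD5*, *NDRG4* and *FAM131B*, rose by log2 fold changes of 4.41, 4.05, 3.90 and 3.76. All 12 had their lowest 4 hour library above their highest 1 hour library, as had 20.5% of genes tested. Choosing the largest rises from these same libraries favours such a separation.

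**Figure D4:**
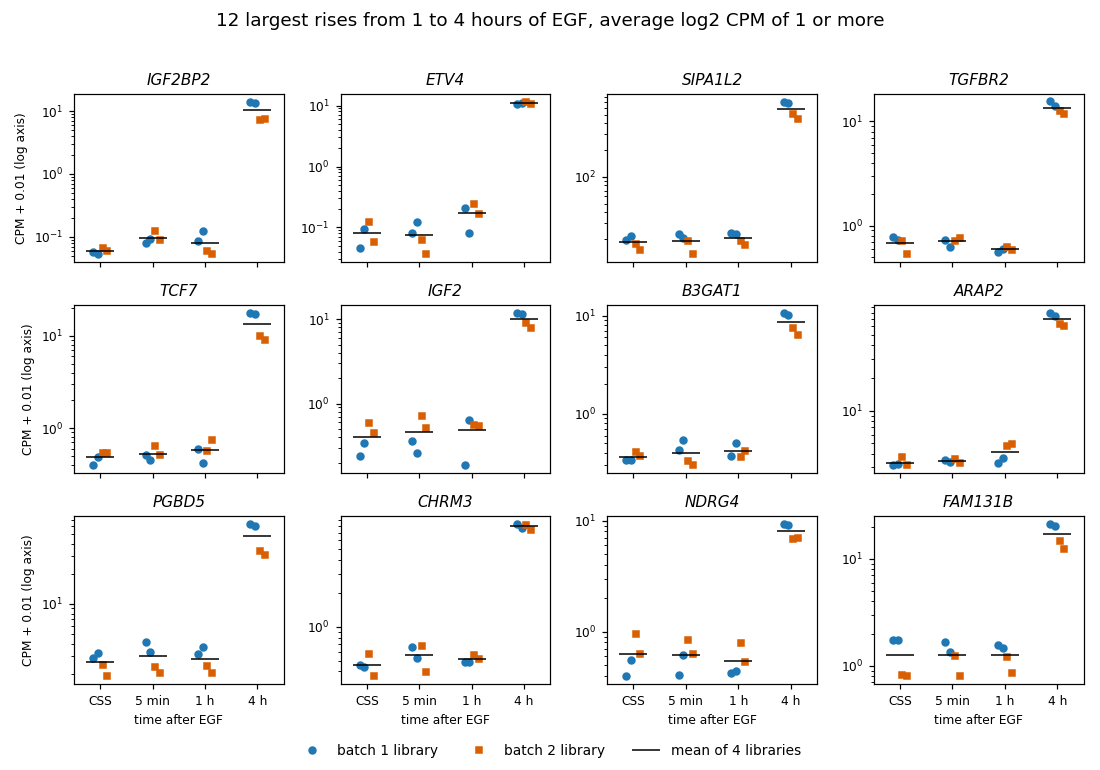
Levels of the 12 genes with the largest rises from 1 to 4 hours, among called genes whose average log2 CPM was 1 or more and whose 4 pairs moved one way, in each of 4 libraries of CSS, EGF 5 minutes, EGF 1 hour and EGF 4 hours, as CPM + 0.01 on a log axis, with circles for batch 1, squares for batch 2 and bars for the mean. All 4 libraries of 4 hours lay above the other 12 libraries in every panel, which the choice of these genes favours.

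Most late starters were scarce. Of 778, 282 averaged a log2 CPM of 1 or more, 136 had at most 3 counts in every 1 hour library, and 693 were called above CSS at 4 hours (5.86% of all genes were). The class and the contrast with CSS use the same 4 hour libraries, so this count follows largely from the choice. The adjusted *P* of 1 hour against CSS was 0.05 or more for 739 of the late starters. The rise exceeded 4-fold for 335 and 8-fold for 172. The NRG-1 libraries, which the EGF contrast does not use, were then read for the same classes. Of the 778, 616 (79.2%) were called higher between 1 and 4 hours of NRG-1, against 4.52% of all genes, and none lower. Of the 104 early genes called lower with EGF, 71 (68.3%) were called lower with NRG-1, against 2.27% of all genes, and of the 472 late falls 206 (43.6%). Same-numbered libraries of both ligands share a batch.

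The PEA3 factors, proteases and matrix genes had the highest median of the lists, with 15 of 28 tested members called higher and 1 lower (4.83% and 3.39% of all genes), and a median log2 fold change of 1.48 against 0.0045 over all genes. *TIMP1*, a metalloproteinase inhibitor, had 0 to 3 counts in each 1 hour library and 1.58, 1.90, 1.65 and 1.85 CPM at 4 hours, at least 43.7-fold above the level of 3 counts per library (adjusted *P* = 5.61e-14). *MMP7*, matrilysin, was at 0.508 to 0.918 CPM in CSS, 1.60, 1.62, 2.03 and 2.34 CPM at 1 hour and 24.3, 27.1, 21.1 and 22.6 CPM at 4 hours (log2 fold change 3.67, adjusted *P* = 5.67e-17). *TNC*, the matrix glycoprotein tenascin C, rose from 0.478, 0.522, 0.610 and 0.477 to 8.79, 8.56, 4.32 and 3.72 CPM (log2 fold change 3.55, adjusted *P* = 2.43e-11), with batch 1 above batch 2 at 4 hours. *MMP10*, stromelysin 2, was named after its values were seen. It was at 0.344 to 0.449 CPM in CSS, 44.5, 41.0, 38.5 and 42.9 CPM at 1 hour and 277, 292, 122 and 154 CPM at 4 hours (log2 fold change 2.31, adjusted *P* = 3.45e-10). The member called lower was *TIMP3*, another metalloproteinase inhibitor (log2 fold change -1.02), an early gene whose 1 hour and 4 hour libraries overlapped. *ETV5* of the PEA3 group was called higher, with a log2 fold change of 2.52, and *ETV1* had one of 0.43 (adjusted *P* = 4.67e-07).

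Of 17 SRF and YAP cytoskeletal targets, 5 were called lower and 3 higher (3.39% of all genes were lower and 4.83% higher), and 5 were lower and 6 higher at any fold (21.5% and 22.5% of all genes). The falls were of *CTGF*, *CYR61* and *TUFT1* above, and of *FHL2* and *AMOTL2*, and the rises of the contractile and adhesion genes *MYL9*, *VCL* and *FLNA*. *MYL9*, a myosin regulatory light chain, rose from 0.955, 1.44, 1.86 and 1.66 to 2.99, 3.44, 3.35 and 3.95 CPM (log2 fold change 1.24, adjusted *P* = 5.37e-07). *VCL*, vinculin, and *FLNA*, filamin A, had log2 fold changes of 1.09 and 1.06. *ACTB*, β-actin, had a log2 fold change of -0.09 (adjusted *P* = 0.109) after a called rise by 1 hour.

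Promoter sequences are shown for 3 genes that hold a CArG box, the SRF site, and differ in timing, and for the late protease *MMP7*. They are from RefSeq on GRCh38.p14 and run from 250 bases before to 50 bases after the annotated start. For *TCF7* the start used lies inside the gene, whose RefSeq span begins at chr5:134108218. Capitals mark the CArG box and, in *MMP7*, the AP-1 site TGANTCA and the TATA box TATAAA, searched on both strands, with a CArG box able to hold TTTATA, as it does in *TCF7*.
TPM4 (chr19:16067288-16067587, plus strand): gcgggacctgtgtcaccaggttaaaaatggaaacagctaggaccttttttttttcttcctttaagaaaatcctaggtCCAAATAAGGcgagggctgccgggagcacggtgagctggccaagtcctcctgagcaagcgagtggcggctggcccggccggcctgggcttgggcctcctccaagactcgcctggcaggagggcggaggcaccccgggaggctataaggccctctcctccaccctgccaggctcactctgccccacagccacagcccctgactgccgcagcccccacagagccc
CNN2 (chr19:1026358-1026657, plus strand): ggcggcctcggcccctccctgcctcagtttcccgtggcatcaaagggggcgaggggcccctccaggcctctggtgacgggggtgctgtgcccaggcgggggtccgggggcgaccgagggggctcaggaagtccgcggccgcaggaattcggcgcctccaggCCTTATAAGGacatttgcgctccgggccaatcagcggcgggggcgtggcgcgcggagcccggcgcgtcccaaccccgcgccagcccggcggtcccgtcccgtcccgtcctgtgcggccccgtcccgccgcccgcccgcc
TCF7 (chr5:134115363-134115662, plus strand): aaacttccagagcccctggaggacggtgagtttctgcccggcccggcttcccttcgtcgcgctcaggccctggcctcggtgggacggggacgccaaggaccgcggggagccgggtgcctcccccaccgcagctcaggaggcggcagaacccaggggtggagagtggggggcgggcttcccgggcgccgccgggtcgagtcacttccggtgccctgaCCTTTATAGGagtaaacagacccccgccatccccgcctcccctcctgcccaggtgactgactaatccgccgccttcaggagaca
MMP7 (chr11:102530698-102530997, minus strand): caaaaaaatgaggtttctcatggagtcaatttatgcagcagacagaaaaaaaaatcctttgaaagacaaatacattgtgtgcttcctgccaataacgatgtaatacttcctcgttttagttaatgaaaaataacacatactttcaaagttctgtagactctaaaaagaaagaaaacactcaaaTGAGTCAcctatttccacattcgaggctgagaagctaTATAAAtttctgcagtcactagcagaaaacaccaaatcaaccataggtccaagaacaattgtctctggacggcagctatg

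*TPM4* and *CNN2* had risen by 1 hour, with overlapping libraries at 1 and 4 hours, while *TCF7* overlapped with CSS at 1 hour and rose by 4 hours. A CArG box was present in 351 of 27305 RefSeq promoters of this length (1.29%), TGANTCA in 2120 (7.76%) and TATAAA in 3264 (12.0%). A promoter sequence was matched for 71.2% of the early genes called lower and 72.5% of late starters, under 80%, so a comparison of motif shares between the classes was void and is not given. A match is a description and not a shown binding site.

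The 34 genes still rising included 6 genes of the matrix metalloproteinase family, *MMP1*, *MMP3*, *MMP7*, *MMP10*, *MMP12* and *MMP13*, given as members of that count. *MMP1* encodes interstitial collagenase. *MMP1* had 0 to 1 counts in CSS libraries and 2.45, 2.97, 3.11 and 4.08 CPM at 1 hour, at least 84.7-fold over the level of 3 counts per library, and then 19.1, 19.1, 8.78 and 11.6 CPM at 4 hours (log2 fold change 2.19, adjusted *P* = 7.04e-08). *MMP13* went from 3.58 ± 0.183 to 10.5 ± 3.53 CPM (log2 fold change 1.58, adjusted *P* = 2.19e-06). For *MMP1*, *MMP10* and *MMP13*, batch 1 libraries were above batch 2 at 4 hours, with the lowest 4 hour library still above the highest 1 hour library.

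Of 38 growth-arrest and FOXO-linked genes, 7 were called lower and 6 higher (3.39% of all genes were lower and 4.83% higher), and 18 were lower and 11 higher at any fold (21.5% and 22.5% of all genes). *BMF*, a pro-apoptotic BH3-only gene, fell from 12.6, 14.0, 12.2 and 11.9 to 1.35, 1.88, 2.14 and 1.71 CPM (log2 fold change -2.83, SE 0.13, adjusted *P* = 1.19e-16), with 15.3 to 17.6 CPM in CSS. *CCNG2*, cyclin G2, an inhibitory cyclin, rose by 1 hour and then fell below CSS, with 140.0, 146, 156 and 162 CPM in CSS, 402, 399.7, 369 and 383 CPM at 1 hour and 80.6, 87.0, 101 and 102 CPM at 4 hours (log2 fold change -2.08, SE 0.07, adjusted *P* = 4.97e-19). *IRS2*, an insulin receptor substrate, fell from 5.82, 6.16, 4.55 and 4.53 to 1.62, 1.40, 1.47 and 1.35 CPM (log2 fold change -1.84, adjusted *P* = 2.37e-11). *CDKN2B*, the CDK4 and CDK6 inhibitor p15, rose from 4.67, 4.48, 4.48 and 4.35 to 25.5, 25.8, 16.7 and 14.9 CPM (log2 fold change 2.19, adjusted *P* = 3.04e-12). *CDKN1B*, the CDK inhibitor p27, was named after its values were seen, and was at 116 ± 5.04 CPM in CSS, 184 ± 17.5 at 1 hour and 67.7 ± 1.28 at 4 hours (log2 fold change -1.44, adjusted *P* = 1.70e-19). The EGF receptor gene *EGFR*, also so named, rose from 33.7, 35.6, 28.8 and 23.6 to 101, 97.3, 84.1 and 71.4 CPM (log2 fold change 1.54, adjusted *P* = 1.58e-09).

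The recovering genes had fallen by 1 hour. The 9 included the arrestin-like genes *TXNIP*, an inhibitor of glucose uptake, and *ARRDC3*, both named after their values were seen, beside *NFKBIA* and *TNFAIP3* above. *TXNIP* was at 511, 547, 388 and 408 CPM in CSS, 81.7, 81.3, 63.8 and 58.2 CPM at 1 hour and 236, 251, 225 and 218 CPM at 4 hours (log2 fold change 1.72, adjusted *P* = 2.38e-17). *ARRDC3* was at 125 ± 12.1 CPM in CSS, 33.8 ± 3.99 CPM at 1 hour and 107 ± 7.41 CPM at 4 hours (log2 fold change 1.67, adjusted *P* = 1.31e-11). *TXNIP* at 4 hours was still under every CSS library. The number of genes in this class was 6 to 19 when single libraries were left out, the highest without EGF 1 hour batch 2 replicate 1.

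Among the 472 late falls, 372 were called below CSS at 4 hours (3.7% of all genes were), and 169 averaged a log2 CPM of 1 or more. The count of 372 follows largely from the choice of the class, which uses the same 4 hour libraries. *SRGAP3* was at 18.2, 18.8, 16.2 and 13.6 CPM in CSS, 19.5, 20.0, 16.8 and 14.8 CPM at 1 hour and 2.18, 2.04, 3.01 and 2.33 CPM at 4 hours (log2 fold change -2.88, SE 0.16, adjusted *P* = 6.60e-15). The prostate kallikrein *KLK2*, an androgen receptor target, was at 13.2, 18.4, 13.1 and 13.7 CPM in CSS, 15.6, 16.2, 14.0 and 12.3 CPM at 1 hour and 5.13, 6.34, 5.34 and 5.63 CPM at 4 hours (log2 fold change -1.37, SE 0.12, adjusted *P* = 1.34e-10). Both overlapped with CSS at 1 hour, and their 4 hour libraries were below all others. *SESN2*, sestrin 2, of the ATF4 list, and *HERPUD1*, of the endoplasmic reticulum stress list, had risen a little by 1 hour, under the fold limit. *SESN2* fell from 87.5, 84.9, 86.6 and 76.6 to 26.8, 27.4, 40.7 and 35.8 CPM (log2 fold change -1.37, adjusted *P* = 1.68e-10). *HERPUD1* fell from 223, 203, 203 and 214 to 61.1, 63.9, 91.7 and 99.6 CPM (log2 fold change -1.45, adjusted *P* = 1.58e-10).

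Of 27 androgen-responsive genes, *KLK2* was called lower and 2 genes higher, near the shares of all genes (3.39% and 4.83%), and 15 were lower and 6 higher at any fold (21.5% and 22.5% of all genes), with a median log2 fold change of -0.21. *PPAP2A* fell from 125, 123, 137 and 144 to 65.1, 67.9, 67.4 and 74.4 CPM (log2 fold change -0.94, adjusted *P* = 3.46e-13). *FKBP5*, a chaperone of steroid receptors, rose from 62.6, 68.7, 67.6 and 66.9 to 150.5, 152, 142 and 134 CPM (log2 fold change 1.12, adjusted *P* = 2.77e-11). The other called higher, *STEAP4*, was at 0.0141 to 0.0610 CPM at 1 hour and 0.0459 to 0.143 CPM at 4 hours, its libraries overlapped, and its adjusted *P* of 0.0423 was lost in 11 of the alternatives tried. Of 10 LNCaP and luminal markers, *KLK2* was called lower, and 7 were lower and 3 higher at any fold (21.5% and 22.5% of all genes). The luminal factor *HOXB13* fell from 548 ± 21.3 to 311 ± 21.5 CPM (log2 fold change -0.82), and the keratin *KRT8* rose from 797 ± 22.0 to 1550.3 ± 179 CPM (log2 fold change 0.96).

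Of 14 clock genes, 3 were called lower and none higher by edgeR (3.39% of all genes were lower and 4.83% higher), and 9 were lower and 2 higher at any fold (21.5% and 22.5% of all genes), with a median of -0.53. *PER1*, a repressor of the clock and an early gene, was at 8.73 to 11.6 CPM in CSS, 37.6, 38.8, 26.8 and 26.0 CPM at 1 hour and 7.65, 7.38, 8.75 and 7.95 CPM at 4 hours (log2 fold change -1.995, adjusted *P* = 4.74e-13). *NFIL3*, a repressor of D-box genes, fell from 35.5 ± 2.29 to 14.7 ± 0.712 CPM (log2 fold change -1.27, adjusted *P* = 4.68e-15). *ARNTL*, which encodes the clock activator BMAL1, fell from 8.82 ± 0.553 to 3.76 ± 0.718 CPM (log2 fold change -1.24, adjusted *P* = 7.52e-12). The repressor *CRY1* rose from 32.2 ± 1.99 to 61.0 ± 4.87 CPM (log2 fold change 0.93, adjusted *P* = 3.25e-10).

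Other lists moved by small amounts. No ribosome biogenesis or RNA polymerase I gene of 38 was called by edgeR, but 32 were higher at any fold (22.5% of all genes were) and none lower, with a median log2 fold change of 0.35. *RRP12* rose from 63.1, 61.9, 63.4 and 57.4 to 111, 104, 108 and 87.2 CPM (log2 fold change 0.73, adjusted *P* = 2.91e-06). *POLR1B*, a core subunit of RNA polymerase I, rose from 57.2, 61.9, 58.3 and 57.7 to 103, 99.7, 95.1 and 92.2 CPM (log2 fold change 0.73, adjusted *P* = 1.80e-11). *CIRH1A* and *NOP56* rose by log2 fold changes of 0.70 and 0.61. Against CSS, the median log2 fold change of the list was 0.17 at 1 hour and 0.56 at 4 hours.

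Of the mitosis list, 20 of 25 were lower and 1 higher at any fold (21.5% of all genes were lower), 0 were called by edgeR, and the median was -0.34. *TTK*, a spindle checkpoint kinase, fell from 23.6, 23.4, 20.4 and 24.3 to 13.7, 14.0, 13.2 and 17.1 CPM (log2 fold change -0.67, adjusted *P* = 7.51e-04). *CENPF*, *BUB1B* and *CENPE*, of the kinetochore and its checkpoint, fell by log2 fold changes of -0.59, -0.54 and -0.50. Of 26 G1/S genes, 8 were lower and 4 higher at any fold (21.5% and 22.5% of all genes) and none was called by edgeR. *CCND1* and *CCND3*, D-type cyclins, rose from 289 ± 12.1 to 459 ± 38.0 CPM (log2 fold change 0.66, adjusted *P* = 4.32e-06) and from 43.5 ± 2.50 to 62.8 ± 5.46 CPM (log2 fold change 0.53, adjusted *P* = 7.88e-09). *E2F1*, a transcription factor of S phase genes, and *CHAF1A*, a chromatin assembly factor, fell by log2 fold changes of -0.55 and -0.50.

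Of 23 cholesterol and fatty acid genes, 1 was called lower and *STARD4* higher (3.39% and 4.83% of all genes), with 7 higher and 5 lower at any fold (22.5% and 21.5% of all genes). *STARD4*, a sterol carrier, rose from 12.9 ± 3.47 to 26.2 ± 3.28 CPM (log2 fold change 1.06, adjusted *P* = 5.83e-07), and *DHCR7* and *MVK* of cholesterol synthesis had log2 fold changes of 0.62 and -0.50. Of 19 glucose uptake and glycolysis genes, 1 was called higher (4.83% of all genes), with 9 higher and 3 lower at any fold (22.5% and 21.5% of all genes). The called gene was *PFKP*, a phosphofructokinase, at 63.8 ± 3.53 CPM at 1 hour and 139 ± 6.13 CPM at 4 hours (log2 fold change 1.12, adjusted *P* = 9.25e-12). The glucose transporter *SLC2A1* fell from 66.8 ± 4.08 to 38.0 ± 3.70 CPM (log2 fold change -0.82, adjusted *P* = 1.59e-12), and *SLC16A3* rose by a log2 fold change of 0.95.

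Of 27 ATF4 targets, 2 were called lower, *CHAC1* and *SESN2* (3.39% of all genes), and 12 were lower and 3 higher at any fold (21.5% and 22.5% of all genes). *DDIT3*, the stress factor CHOP, and *STC2* fell by log2 fold changes of -0.66 and -0.62. Of 19 endoplasmic reticulum genes, 1 was called lower, *HERPUD1* (3.39% of all genes), with 8 higher and 4 lower at any fold (22.5% and 21.5% of all genes). *XBP1*, *SEL1L* and *DNAJB9* had log2 fold changes of -0.71, -0.41 and -0.42, and the libraries of *DNAJB9* overlapped (adjusted *P* = 0.0464, lost in 9 of the alternatives).

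**Figure D5:**
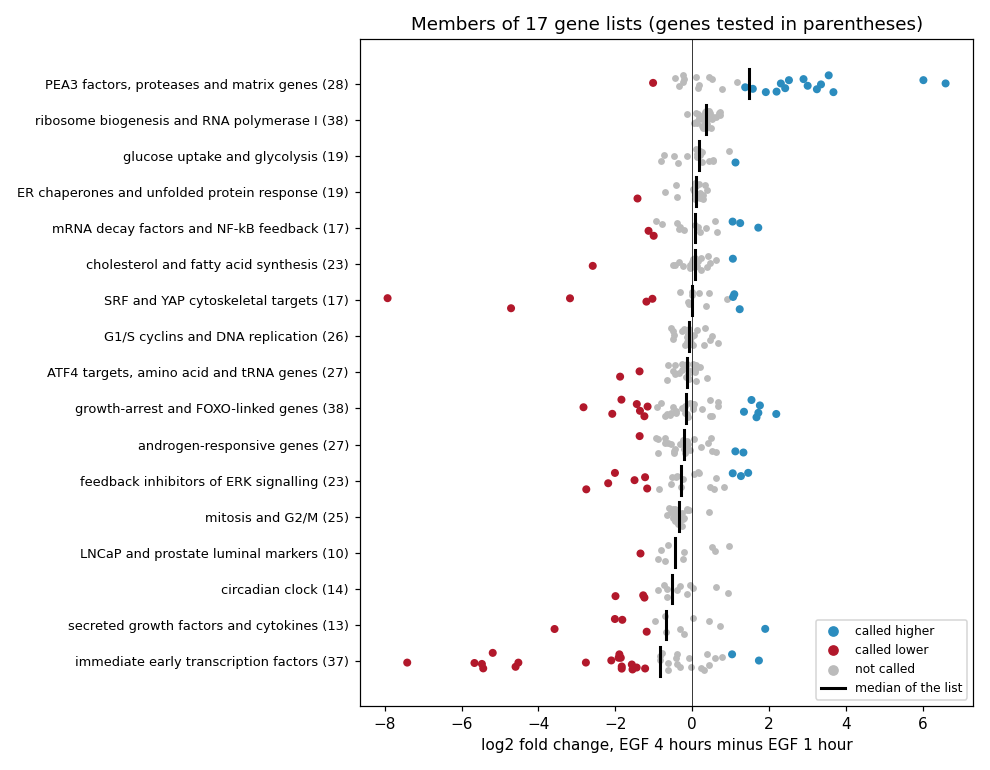
Log2 fold changes of EGF 4 hours minus EGF 1 hour for the members of 17 gene lists, with blue points called higher, red points called lower, grey points not called and black bars for the list medians. Immediate early transcription factors have the lowest median at -0.85 and PEA3 factors, proteases and matrix genes the highest at 1.48.

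The change from 1 to 4 hours was then compared between EGF and NRG-1. The difference of the changes had an adjusted *P* under 0.05 and was beyond 1 on the log2 scale for 14 of 16995 genes (0.0824%), 4 with a more positive and 10 with a more negative change under EGF. At any size, 26 genes (0.153%) had a more positive and 60 (0.353%) a more negative change under EGF. *EGR1* had the largest difference of the 14. Its NRG-1 libraries held 1626, 1477, 1272 and 1033 CPM at 1 hour and 59.8, 59.3, 79.2 and 64.6 CPM at 4 hours, a log2 change of -4.36 against -1.22 under EGF, so that the changes differed by 3.14 (adjusted *P* = 1.77e-04). At 1 hour the levels under both ligands overlapped, and at 4 hours they did not. *ZFP36*, *JUNB* and *DUSP6* also had a more positive change under EGF, by 1.31, 1.16 and 1.05. *JUNB*, an AP-1 subunit, was at 126 ± 3.64 CPM at 4 hours of EGF and 61.0 ± 10.3 CPM at 4 hours of NRG-1. *FOSB*, *CYR61*, *ATF3* and *TUFT1* fell further under EGF, by -2.05, -1.66, -1.32 and -1.23, but from a larger rise at 1 hour. In that order, their log2 fold changes of EGF 1 hour against CSS were 7.617, 4.416, 3.614 and 2.697. Those of NRG-1 1 hour against CSS were 6.027, 3.151, 2.564 and 1.972. Whether their mRNAs decayed faster under EGF was not tested. Apart from those named by rule, these genes are given as members of the tested list of 14.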

How the data were processed

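Polyadenylated, stranded RNA-seq of 32 LNCaP libraries was deposited by the authors in the unit of expected counts from RSEM after trimming with Trimmomatic 0.36 and alignment with STAR 2.7.0f to hg19, and as TPM. The annotation is not given in the sources used here. Expected counts were rounded (11.2% were not whole), a gene was tested if 3 or more libraries held 5 or more counts of it, and edgeR 4.0.16 in R 4.3.3 fitted group and batch over all 32 libraries with TMM scaling and the quasi-likelihood test. The deposited TPM values were used for levels per length and, as log2(TPM + 1), in limma 3.58.1. Depth limits the precision of scarce genes. Bounds use 3 counts per library and cover counting error only.

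Named genes were the 12 largest falls and 12 largest rises among called genes whose average log2 CPM was 1 or more and whose 4 same-numbered pairs all moved one way, 3 NRG-1 early genes with the largest falls and 3 with the smallest change, and up to 4 members passing the test in each list by size of change. Values of some listed genes are not reported here. The genes and lists were chosen with earlier results of these data known. Replicate numbers mark a shared batch in the labels, and after subtracting group means, libraries of 1 and 4 hours with the same number correlated at 0.234 to 0.281, and at 0.067 and 0.164 within batches 1 and 2 once batch means were removed too. No pair of replicates agreed within sampling noise (chi-square per degree of freedom 6.60 to 90.5). Within batches 1 and 2 it was 12.5 and 15.4 at 1 hour and 6.60 and 82.7 at 4 hours. The 4 hour libraries of batch 2 thus differed about as much as libraries of different batches. Alternatives used DESeq2 1.42.0, other filters, scalings and batch choices, and each library left out. Scripts were tested on simulated data. Gene spans, exons, 3′ UTRs and promoters came from RefSeq on GRCh38.p14 and GENCODE 44, a newer build than that of the counts, by symbol, with 1259 of 16462 matched through an older symbol.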

Additional observations from a re-analysis of the deposited data

Results flagged for a closer look

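The change from 1 to 4 hours differed between EGF and NRG-1 by more than 1 on the log2 scale for 14 genes with adjusted *P* under 0.05, in the test of the difference of the changes. On the log2 scale, the EGF change less the NRG-1 change was 3.14 for *EGR1* (adjusted *P* = 1.77e-04), 1.31 for *ZFP36*, 1.16 for *JUNB* and 1.05 for *DUSP6*. It was -2.05 for *FOSB*, -1.68 for *C8orf4*, -1.66 for *CYR61*, -1.60 for *TINAGL1*, -1.39 for *COL13A1*, -1.32 for *ATF3*, -1.31 for *FHL2*, -1.23 for *TUFT1*, -1.17 for *GBP1* and -1.004 for *DNAJB4*. The adjusted *P* of these 13 ran up to 0.0464.

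In 5 of 178 groups of 4 libraries of the 89 named genes, 1 library lay far from the other 3 by Dixon's criterion, which chance alone meets in about 5% of groups. *CNN2* had 81.6 CPM in EGF 1 hour batch 1 replicate 1, with the others at 83.6 to 83.9. In EGF 4 hours batch 2 replicate 1, *STC2* had 117 CPM against 96.0 to 99.1, *CCND1* had 515 CPM against 433 to 443, and *CENPE* had 33.7 CPM against 28.5 to 29.3. *SLC16A3* had 2.11 CPM in EGF 4 hours batch 1 replicate 2, with the others at 1.47 to 1.55.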

How the results depend on the processing

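With the replicate block, which pairs same-numbered libraries, 1411 genes were called, 587 lower and 824 higher, and no named gene crossed the adjusted *P* threshold of 0.05. DESeq2 called 1367 genes. With each library left out the number called was 1306 to 1448 and that of recovering genes 6 to 19. With at least 10 counts in every library, 716 of 13766 genes tested were called, 320 lower and 396 higher. They held 14 partly decayed, 253 late falls, 17 still rising and 372 late starters. This filter leaves out every gene that is scarce in any library. Batch 2 alone gave 876, 339 lower and 537 higher, with 262 late falls, 3 recovering and 511 late starters. Without a fold limit 7484 genes passed, 3658 lower and 3826 higher, with 308 returned, 128 partly decayed, 3222 late falls, 310 still rising, 218 recovering and 3298 late starters. Tested against a log2 fold change of 1, 664 passed, 205 lower and 459 higher, with 41 returned, 12 partly decayed, 152 late falls, 11 still rising, 3 recovering and 445 late starters. On log2(TPM + 1), limma called 396 genes with and without the filter, 176 lower and 220 higher, with 13 partly decayed, 108 late falls, 9 still rising, 2 recovering and 209 late starters. On log2(TPM + 0.1) it called 651, 330 lower and 321 higher, with 250 late falls, 18 still rising, 5 recovering and 298 late starters. A pseudocount shrinks the changes of scarce genes. For batch 2 alone the cause was not tested. No gene called in the fit reported was called in the opposite direction in any alternative. Of 89 named genes, 53 kept their side of adjusted *P* = 0.05, whatever the fold, in every alternative that gave a value. Among these, *SPATA2L*, *TPM4* and *CNN2*, with small changes not past 0.05, changed sign in at least 1 alternative. No other named gene changed sign. The other 36 passed 0.05 in the fit reported and missed it in at least 1 alternative. This was mostly the test against a log2 fold change of 1. For 11 of the 89, at least 1 of 21 alternatives gave no value.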
